A study of Mus musculus with 18 samples.

Results

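Genes that neurons switch on when they fire, and whose products then act at synapses, were followed across the doses of glyphosate, the widely used herbicide. They are Arc, Homer1, Npas4, Bdnf, Nptx2, Plk2, Ptgs2, Inhba, Pcsk1 and Scg2, chosen by gene symbol, and all 10 were found among the 27179 genes of the count table. RNA sequencing measured gene expression in brain tissue of 18 wild-type C57BL/6J mice, 10 males and 8 females, which received a gavage each day over 14 days, starting when they were 4 months old. Vehicle was given to 5 mice (2 males and 3 females), 125 mg/kg glyphosate to 5 mice (3 males and 2 females), 250 mg/kg to 4 mice (3 males and 1 female) and 500 mg/kg to 4 mice (2 males and 2 females). The vehicle was the neutralised sodium hydroxide solution without glyphosate, and all groups shared strain, age, route and schedule. Each library came from 1 mouse, and mice are named by the G number of their sample title. The study's methods describe RNA of a brain hemisphere and the labels bulk brain tissue, while another passage names the hippocampus, and hemisphere is the reading used here.

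Synaptic activity opens calcium channels and receptors, and calcium signals then drive a first wave of transcription through factors such as CREB and SRF. The transcription factor genes of that wave, Fos and Egr1 among them, are joined by genes whose products act at the synapse, and a slower wave follows. Npas4 encodes a neuron-specific transcription factor that is induced by calcium entry and regulates inhibitory and excitatory inputs. Arc encodes a protein that promotes removal of AMPA receptors from the synapse, Homer1 a scaffold of the postsynaptic density whose short form is induced by activity, and Plk2 a kinase that weakens overactive synapses. Bdnf, Nptx2 and Inhba encode secreted proteins, namely a neurotrophin, a pentraxin that clusters AMPA receptors and the beta A subunit of activin. Ptgs2 encodes cyclooxygenase 2, the inducible enzyme of prostaglandin synthesis, Pcsk1 a convertase that cleaves prohormones inside dense-core vesicles, and Scg2 a granin stored in those vesicles.

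Total counts per library ran from 3948096 to 11732885, and the fewest reads on any of the 10 genes in any library were 16, for Npas4 and for Inhba. Libraries of G9 (vehicle, female) and G4 (500 mg/kg, female) stood apart, their median correlation to the rest being 0.942 (G9) and 0.943 (G4), where the remaining 16 libraries had 0.959 to 0.975. All 16 excitatory neuron markers checked had counts, and 1 of them (Fezf2) was at 0 in at least 1 mouse. Their summed level, in reads scaled to library size as CPM, ran from 709.6 to 5510 CPM in vehicle mice. The mice given 125 mg/kg had 2538 to 6276 CPM, those given 250 mg/kg had 2060 to 4661 CPM and those given 500 mg/kg had 782 to 3067 CPM, and the lowest mouse was G9 in the vehicle group and G4 in the 500 mg/kg group. Regional markers differed widely between mice of 1 dose: the summed level of cerebellar markers ran from 279.7 to 2852 CPM at 500 mg/kg and 1277 to 4029 CPM in vehicle mice, and that of striatal markers from 355 to 1055 CPM at 500 mg/kg and 396 to 4225 CPM in vehicle mice. In bulk tissue, fewer cells of a type and less RNA per cell cannot be told apart.

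Promoters were taken from RefSeq on GRCm38.p6 and span 250 bases before to 50 bases after each transcription start, written in the direction of the gene. For 8 of the 10 genes, all but Arc and Nptx2, 15 such windows were used, 7 of them alternative starts of Bdnf. Each was searched on both strands for TGACGTCA, the full cAMP response element to which CREB binds, and for its core TGACG, which every full element also contains. The full element was present in 3 of the 15 windows, those of Scg2, Pcsk1 and Plk2 (3 of the 8 genes), and in 1.79% of all 32851 windows in the table. The core was present in 7 of the 15 windows, belonging to 7 genes, and in 20.8% of all windows. The only E-box of the form CACGTG was in the Ptgs2 window (7.15% of all windows), and no window of these genes held a CArG box, the site of SRF (1.63% of all windows), or an AP-1 site (5.2%). The TATA motif TATAAA was present in the Inhba window (13.6% of all windows). These matches describe letters in the windows and were not tested for binding. The 4 windows printed here are shown because they hold a full element or, for Npas4, a pair of cores close together. Capitals mark each full element or core on either strand.
Scg2, chr1:79439977-79440276, minus strand: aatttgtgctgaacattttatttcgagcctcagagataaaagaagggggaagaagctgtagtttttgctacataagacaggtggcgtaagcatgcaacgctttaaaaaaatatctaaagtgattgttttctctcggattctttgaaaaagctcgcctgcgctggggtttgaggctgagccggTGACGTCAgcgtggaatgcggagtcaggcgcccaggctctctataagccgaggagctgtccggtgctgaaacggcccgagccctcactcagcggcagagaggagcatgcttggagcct
Pcsk1, chr13:75089607-75089906, plus strand: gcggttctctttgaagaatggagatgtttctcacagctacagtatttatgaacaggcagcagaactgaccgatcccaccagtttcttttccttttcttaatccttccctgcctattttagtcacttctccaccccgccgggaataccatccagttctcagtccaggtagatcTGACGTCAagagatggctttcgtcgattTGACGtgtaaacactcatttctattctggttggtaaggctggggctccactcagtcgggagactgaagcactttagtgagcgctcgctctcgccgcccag
Plk2, chr13:110394794-110395093, plus strand: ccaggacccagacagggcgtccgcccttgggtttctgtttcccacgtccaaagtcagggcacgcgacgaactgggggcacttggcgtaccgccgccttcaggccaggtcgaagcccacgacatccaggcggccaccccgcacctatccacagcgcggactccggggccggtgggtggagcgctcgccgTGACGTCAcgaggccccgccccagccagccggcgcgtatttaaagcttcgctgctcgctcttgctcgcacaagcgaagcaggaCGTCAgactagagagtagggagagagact
Npas4, chr19:4989922-4990221, minus strand: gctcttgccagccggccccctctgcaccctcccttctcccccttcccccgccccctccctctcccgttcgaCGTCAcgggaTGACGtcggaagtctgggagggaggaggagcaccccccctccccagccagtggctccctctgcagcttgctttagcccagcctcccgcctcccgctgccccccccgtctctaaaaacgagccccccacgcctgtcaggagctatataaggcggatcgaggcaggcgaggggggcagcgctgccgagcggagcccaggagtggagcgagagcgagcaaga
Counted from the transcription start, the full element began at position -68 in Scg2, -78 in Pcsk1 and -62 in Plk2.

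To ask how the 10 genes varied with dose, counts were fitted with a line over dose and sex as covariate, and a slope is the log2 change over 500 mg/kg. Of the 10 slopes, 9 were negative and that of Scg2 was positive, with a median of -0.49 over the 10 genes, against 0.01 over all 15863 genes tested. Without G4 the median was -0.28 and without G5 it was -0.29. None of the 10 genes passed edgeR's quasi-likelihood test with Benjamini-Hochberg adjustment over all genes at 0.05, among which 0.246% passed rising and 0.0441% falling. At an unadjusted p under 0.05, 1 of the 10 genes had a positive slope (Scg2) and 2 a negative slope (Npas4 and Plk2), against 7.91% rising and 5.28% falling of all genes. DESeq2, run as an alternative, called 1 of the 10 genes, Scg2, in the rising direction and none in the falling direction, against 1.37% and 0.394% of the 13704 genes it adjusted, and limma-voom called none.

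**Figure D1:**
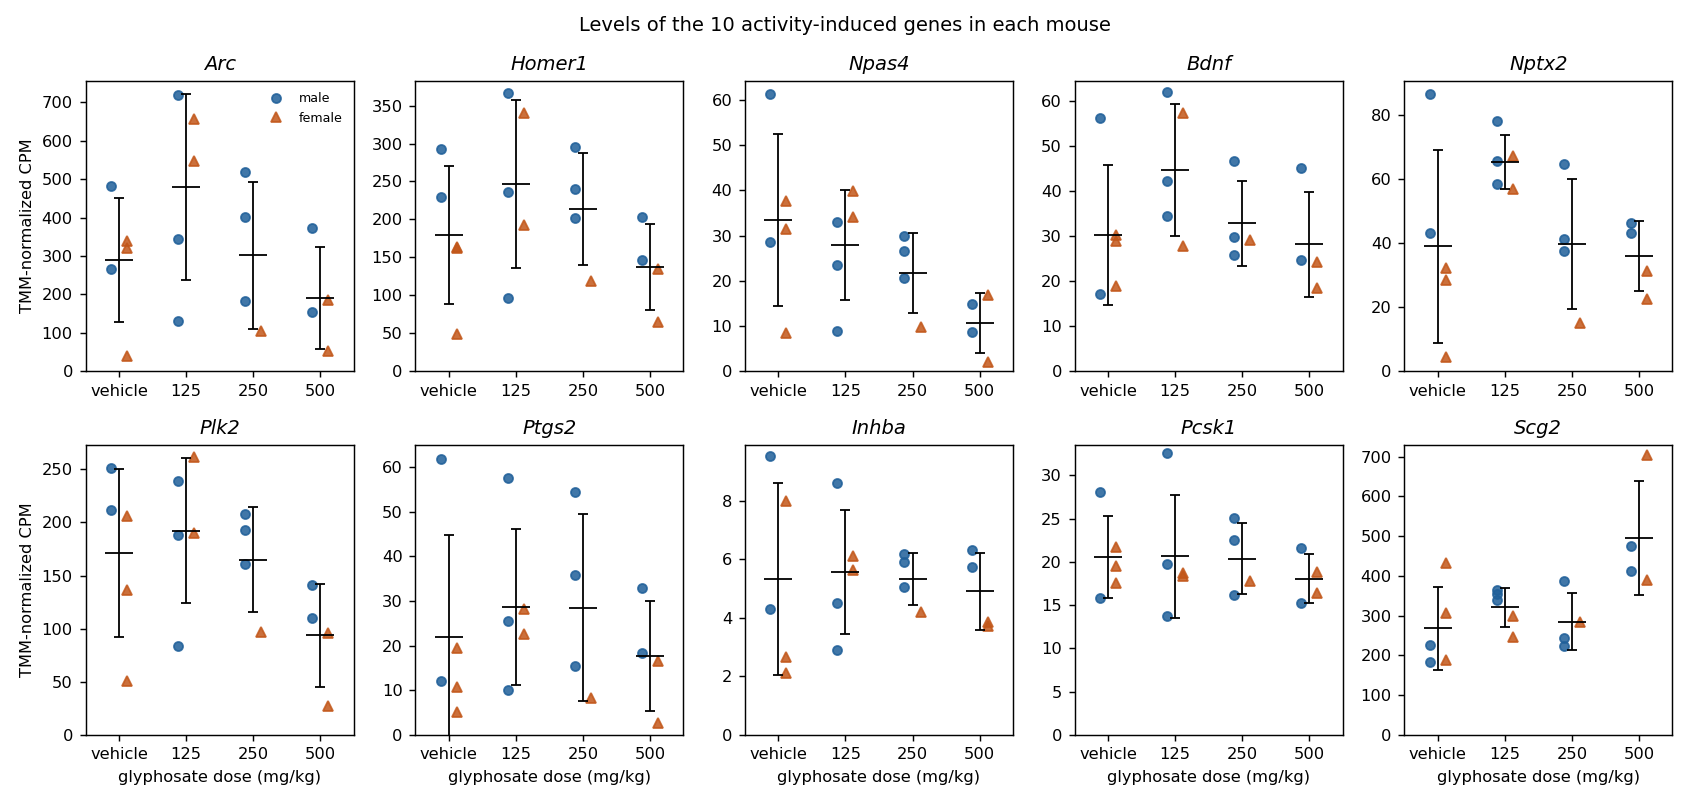
Level of each gene in each mouse by dose, in TMM-normalized CPM, with circles for males, triangles for females, and the group mean and SD in black (the lower bar of Ptgs2 in vehicle mice stops at 0). Npas4 averaged 10.6 CPM at 500 mg/kg and Scg2 averaged 495 CPM, with vehicle means of 33.5 and 268 CPM.

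Npas4 (chromosome 19, 4984353 to 5003439, GRCm38) had the steepest slope of the 10 genes. Its level in the vehicle mice G1, G5, G9, G15 and G18 was 28.5, 61.2, 8.42, 37.7 and 31.5 CPM. At 125 mg/kg the mice G25, G29, G34, G40 and G45 had 34.2, 39.8, 23.5, 33.0 and 8.85 CPM, and at 250 mg/kg the mice G49, G64, G66 and G71 had 9.87, 29.9, 26.6 and 20.5 CPM. At 500 mg/kg the mice G4, G79, G87 and G90 had 2.06, 16.8, 14.8 and 8.66 CPM. All 4 mice at 500 mg/kg lay under the vehicle median, but 3 of them lay above the lowest vehicle mouse, G9, so the groups overlapped. The slope was -1.71 (SE 0.53), with an adjusted p of 0.173 in edgeR and an adjusted p of 0.0548 in DESeq2. At 500 mg/kg the log2 change against vehicle was -1.69 (SE 0.56, adjusted p = 0.280 in edgeR). Without G4 the slope was -1.35, and leaving out each mouse in turn gave slopes of -2.14 to -1.35 with adjusted p of 0.0595 to 0.503.

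Plk2 (chromosome 13, 110395044 to 110400844), the kinase, had the next steepest slope. In the order of mice given for Npas4, vehicle mice had 251, 212, 50.5, 206 and 136 CPM. Mice at 125 mg/kg had 190.0, 262, 188, 239 and 83.5 CPM, those at 250 mg/kg 97.2, 193, 208 and 161 CPM, and those at 500 mg/kg 26.9, 96.2, 141 and 110.2 CPM. G4 was the lowest mouse of all and G9 the next, and 0 of the 4 mice at 500 mg/kg exceeded the vehicle median. The slope was -1.04 (SE 0.43, adjusted p = 0.304 in edgeR), and the log2 change at 500 mg/kg against vehicle was -0.94 (SE 0.43, adjusted p = 0.411). Without G4 the slope was -0.70.

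Arc (chromosome 15, 74669081 to 74672570) varied widely within each dose. Vehicle mice had 267, 483, 38.7, 338 and 319.9 CPM, and mice at 125 mg/kg had 547, 657, 344, 720.1 and 131 CPM. Mice at 250 mg/kg had 105, 401, 519 and 182 CPM, and mice at 500 mg/kg had 53.7, 185, 154 and 372 CPM. The lowest values came from G9 and G4, the highest from G40 and G29, and every group overlapped with every other. The slope was -1.02 (SE 0.68, adjusted p = 0.543 in edgeR), and without G4 it was -0.63.

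Homer1 (chromosome 13, 93303757 to 93405129) averaged 179.6 ± 90.6 CPM in vehicle mice (SD, n = 5), 246 ± 110.5 at 125 mg/kg (SD, n = 5), 214 ± 74.0 at 250 mg/kg (SD, n = 4) and 137 ± 56.9 at 500 mg/kg (SD, n = 4). Its slope was -0.59 (SE 0.42, adjusted p = 0.576 in edgeR). The count pools the activity-induced short form and the constitutive long forms, and the annotated transcripts Gm47075 and Gm47088 overlap the gene on the same strand.

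Among the secreted proteins, Nptx2 (chromosome 5, 144545887 to 144557478) differed most between neighbouring doses. Vehicle mice had 43.0, 86.4, 4.54, 28.6 and 32.1 CPM, mice at 125 mg/kg 56.8, 67.2, 65.6, 77.9 and 58.4 CPM, mice at 250 mg/kg 15, 41.4, 64.7 and 37.4 CPM, and mice at 500 mg/kg 22.6, 31.3, 43.2 and 46.2 CPM. The 5 mice at 125 mg/kg lay above all vehicle mice but G5 and varied little (SD 8.42 CPM), while the vehicle group ran over a 19.0-fold range from G9 to G5. The log2 change at 125 mg/kg against vehicle was 0.78 (SE 0.38, adjusted p = 0.467 in edgeR), and at 500 mg/kg it was -0.09 (SE 0.41, adjusted p = 0.957). The slope over dose was -0.43 (SE 0.46, adjusted p = 0.737 in edgeR).

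Bdnf (chromosome 2, 109674700 to 109727043) had 17.1, 56.1, 18.8, 30.3 and 28.8 CPM in vehicle mice, 57.2, 27.8, 42.3, 62.0 and 34.3 CPM at 125 mg/kg, 29.1, 29.7, 46.6 and 25.7 CPM in the 250 mg/kg group and 18.5, 24.3, 24.6 and 45.1 CPM at 500 mg/kg. The 3 highest mice were G40, G25 and G5, of which none was in the 500 mg/kg group. Its log2 change at 125 mg/kg against vehicle was 0.51 (SE 0.30, adjusted p = 0.545 in edgeR) and its slope was -0.35 (SE 0.34, adjusted p = 0.702). Reads from its several promoters were counted together, and how the counting treated strand is not given in the sources used here, so reads of the antisense gene Gm45346 cannot be told apart from those of Bdnf. Inhba (chromosome 13, 16004256 to 16031609), which Gm48444 and the pseudogene B230303A05Rik overlap on the other strand, was the least abundant of the 10 genes. It averaged 5.33 ± 3.29 CPM in vehicle mice (SD, n = 5) and 4.91 ± 1.31 CPM at 500 mg/kg (SD, n = 4), with a slope of -0.17 (SE 0.35, adjusted p = 0.874 in edgeR).

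Ptgs2 (chromosome 1, 150100031 to 150108234) had the largest spread relative to its mean, with a coefficient of variation of 74.0% over the 18 mice. Vehicle mice had 12, 61.9, 5.21, 10.7 and 19.4 CPM, mice at 125 mg/kg 28.2, 22.5, 25.4, 57.5 and 9.93 CPM, mice at 250 mg/kg 8.14, 35.8, 54.5 and 15.5 CPM, and mice at 500 mg/kg 2.7, 16.4, 18.3 and 32.9 CPM. All groups overlapped, and the slope was -0.55 (SE 0.60, adjusted p = 0.744 in edgeR). G5, a vehicle male, had the highest level of all.

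Of the genes of the dense-core vesicle, Pcsk1 (chromosome 13, 75089420 to 75134861) was the steadiest of the 10 genes, with a coefficient of variation of 23.9%, and averaged 18 ± 2.83 CPM at 500 mg/kg (SD, n = 4) and 20.5 ± 4.75 CPM in vehicle mice (SD, n = 5). Its slope was -0.21 (SE 0.20, adjusted p = 0.701 in edgeR).

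Scg2 (chromosome 1, 79434366 to 79440026) was the one gene with a positive slope. Vehicle mice had 184, 227, 432, 188 and 307 CPM, mice at 125 mg/kg 299, 247, 354, 338 and 365 CPM, mice at 250 mg/kg 284, 244, 225 and 386 CPM, and mice at 500 mg/kg 703, 391, 411 and 475 CPM. All 4 mice at 500 mg/kg lay above the vehicle median and 2 of them lay above every vehicle mouse, while the vehicle mouse G9 reached into their range. The slope was 0.84 (SE 0.23), with an adjusted p of 0.137 in edgeR and 0.0302 in DESeq2. At 500 mg/kg the log2 change against vehicle was 0.91 (SE 0.25), with an adjusted p of 0.179 in edgeR and 0.0334 in DESeq2, which called 1.08% of all genes in that comparison. Midbrain dopamine markers moved with Scg2, with a Pearson r of 0.85 to its level over the 18 mice, and their part in its slope was not tested. Without G4, the highest mouse, the slope was 0.60 and the adjusted p in edgeR 0.541, and without G9 the slope was 1.0 and the adjusted p 0.0423.

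**Figure D2:**
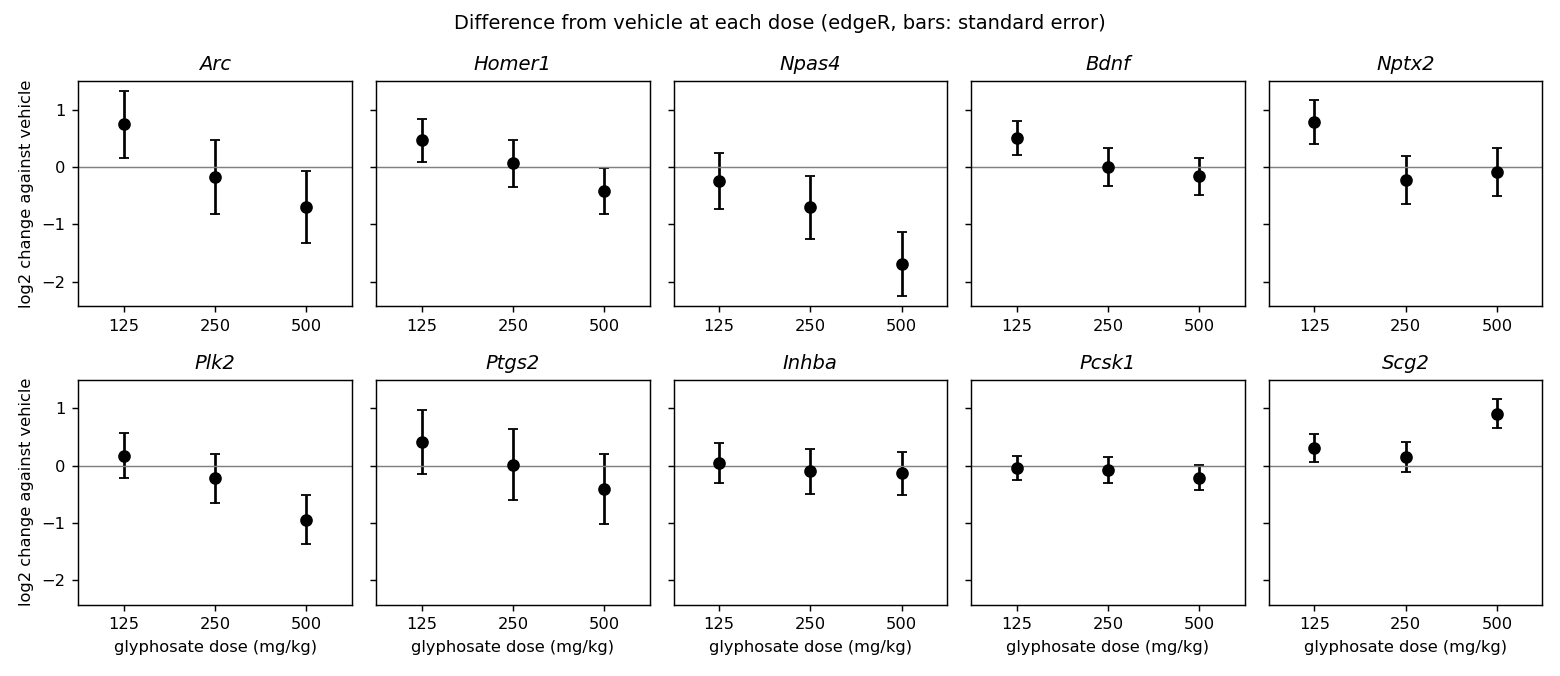
Log2 change of each gene against vehicle at 125, 250 and 500 mg/kg from the edgeR fit of all 18 mice, with standard errors as bars and the grey line at 0. Nptx2 stood at 0.78 at 125 mg/kg, and at 500 mg/kg Npas4 stood at -1.69 and Scg2 at 0.91.

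Taking each dose against vehicle, the median log2 change of the 10 genes was 0.36 for 125 mg/kg, -0.09 for 250 mg/kg and -0.31 for the highest dose, while the median of all genes was 0.00 at each dose. The change was positive for 8 of the 10 genes under 125 mg/kg, for 3 under 250 mg/kg and for 1 under 500 mg/kg. The edgeR test called none of the 10 genes at any dose, and of all genes it called 0.0189% for 500 mg/kg, 0% for 250 mg/kg and 0% for 125 mg/kg. Before adjustment, Npas4, Plk2 and Scg2 (3 of the 10 genes) had p under 0.05 at the highest dose and 0 did at either lower dose. Of all genes, 11.6% did so for 500 mg/kg, 3.76% for 250 mg/kg and 11.2% for 125 mg/kg. DESeq2 called Scg2 at 500 mg/kg and none of the 10 genes at 250 mg/kg or at 125 mg/kg, where it called 0% and 0.252% of all genes. These comparisons share the 5 vehicle mice.

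No gene among the 10 had all 500 mg/kg mice above or all below every vehicle mouse, which 2.32% and 0.933% of all genes did. In the edgeR test for any difference among the 4 groups none of the 10 genes passed (0.0441% of all genes did), 2 had an unadjusted p under 0.05 (Npas4 with 0.0469 and Scg2 with 0.00906) as did 14.95% of all genes, and DESeq2 called Scg2 with an adjusted p of 0.0446 (3.4% of all genes). The edgeR test for a departure from a straight line called none of the 10 genes, with 0 at an unadjusted p under 0.05 and 0.0063% of all genes called. Nptx2 came nearest, with an unadjusted p of 0.0508 and an adjusted p of 0.428 in edgeR.

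Males and females of the same dose were compared in the dose fit. Of the 10 genes, 9 were on the higher side in males, with a median log2 difference of 0.44, against 0.00 over all genes. Ptgs2 differed by 1.22 (SE 0.42), Nptx2 by 0.80 (SE 0.33) and Homer1 by 0.63 (SE 0.29), and the adjusted p in edgeR was 0.459 for Ptgs2, 0.459 for Nptx2 and 0.484 for Homer1. None of the 10 genes passed, and 0.0441% of all genes did. These 3 of the 10 genes had an unadjusted p under 0.05 in edgeR, against 10.1% of all genes. Both mice that stood apart, G9 and G4, are females. The slopes of males and females were -1.68 (SE 0.74) and -1.75 (SE 0.79) for Npas4, and 0.83 (SE 0.36) and 0.85 (SE 0.32) for Scg2. The edgeR test of the slope difference called none of the 10 genes and 0% of all genes. Its p before adjustment fell below 0.05 for 0 of the 10 genes and for 1.65% of all genes.

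The transcription factors of the first wave, with other early genes such as Btg2 and Ier2, were checked as a list. It held 20 genes other than Npas4, all of them tested. Of these, 2 fell in edgeR (Btg2 and Ier2), none rose and 17 of the 20 slopes were negative, with a median of -0.69 (-0.35 without G4). DESeq2 called 1 of the 20 rising and 3 falling, against 1.37% and 0.394% of all genes it adjusted. Maff, a transcription factor gene, went the other way. Its slope was 1.03 to 1.41 with each mouse left out in turn, with adjusted p of 0.0538 to 0.461 in edgeR. Btg2, an antiproliferative cofactor, had a slope of -1.86 (SE 0.31, adjusted p = 0.0150 in edgeR). Its level was 19.3, 28.5, 23.3 and 31.0 CPM at 500 mg/kg, each below every vehicle mouse, against 42.8, 144, 79.5, 103 and 103 CPM in vehicle mice. Ier2, an immediate early nuclear protein, had a slope of -1.47 (SE 0.29, adjusted p = 0.0361 in edgeR). Fos itself had a slope of -1.23 (SE 0.27) with an adjusted p of 0.0580 in edgeR and 0.0037 in DESeq2. Mice at 500 mg/kg had 32.8, 44.9, 30.6 and 38.3 CPM, against 27.1, 112, 82.5, 118 and 94.0 CPM in vehicle mice, so that the vehicle male G1 lay below all 4 treated mice and the other 4 vehicle mice above them. Without G4 the adjusted p in edgeR was 0.128 for Btg2, 0.268 for Ier2 and 0.348 for Fos, and the slope was -1.76 for Btg2, -1.27 for Ier2 and -1.16 for Fos. The slope of Btg2 also missed the threshold without G5 (adjusted p = 0.0544) or G87 (0.0820). The slope of Ier2 passed with 10 of the 18 mice left out in turn and missed it without G4, G5, G15, G25, G34, G40, G79 or G87, where its adjusted p in edgeR was 0.0518 to 0.268. With the tag number of the labels as a block, the slope of Btg2 was -1.59 and the slope of Ier2 -1.11, and neither was called. In the tags that span dose groups, vehicle mice are females and treated mice males. That fit therefore hardly separates dose from sex and cannot decide on these calls.

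The list as a whole was lowest in the same mice as most of the 10 genes. Its summed level was 687 CPM in G9, against 1074 to 1922 CPM in the other 4 vehicle mice, and 398 CPM in G4, against 842 to 1022 CPM in the other 3 mice given 500 mg/kg. Single genes of the list differed from this sum. Btg2, Ier2 and Fos had their lowest vehicle level in G1 (42.8, 9.55 and 27.1 CPM) and not in G9 (79.5, 31.7 and 82.5 CPM).

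Of 25 other effector genes induced by activity, 1 fell (Dusp1, a phosphatase that ends MAP kinase signalling), 24 did not pass and the median slope was -0.23 (-0.13 without G4). Dusp1 had a slope of -0.99 (SE 0.20, adjusted p = 0.0361 in edgeR), with 39.4, 44.9, 40.9 and 49.7 CPM at 500 mg/kg, against 47.4, 107, 89.1, 107 and 82.3 CPM in vehicle mice. Without G4 its adjusted p was 0.265, and the slope of Dusp1 also missed the threshold without G5, G15, G25, G34, G40 or G87 (adjusted p = 0.0505 to 0.117 in edgeR). With the tag number as a block, which hardly separates dose from sex, the slope was -0.82 and not called. Ccn1, a matricellular protein, had a slope of -1.41 with an adjusted p of 0.0909 in edgeR and 0.0119 in DESeq2.

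Among the known partners of the 10 genes, edgeR called none at an adjusted p under 0.05. Arc interactors and AMPA receptor genes had a median slope of -0.34 (9 genes tested), which was -0.25 without G4. The Homer family with its partners had -0.46 (10 genes), and -0.18 without G4. The BDNF receptors and processing enzymes had a median of 0.069 (12 genes), and 0.11 without G4. The remaining neuronal pentraxins had -0.37 (2 genes), and -0.021 without G4, and the polo-like kinases and Plk2 targets had -0.13 (9 genes), and -0.034 without G4. The activin pathway had -0.18 (14 genes), and -0.074 without G4, and dense-core vesicle cargo and processing had -0.075 (21 genes), and -0.026 without G4. The medians of the prostaglandin pathway (0.032, 16 genes) and of the partners and paralogs of Npas4 (-0.047, 6 genes) changed sign without G4, to -0.081 for prostaglandin genes and 0.11 for Npas4 partners. DESeq2 called none in these lists either. At an unadjusted p under 0.05, rising and falling genes numbered 1 and 1 in the Arc list, 1 and 2 in the Homer list and 2 and 0 in the BDNF list. They numbered 0 and 0 for pentraxins, 0 and 2 for polo-like kinases, 1 and 2 for activin and 2 and 1 for dense-core vesicles. Prostaglandin genes had 1 and 1, and Npas4 partners 1 and 0. Of all genes, 7.91% rose and 5.28% fell at that level. Examples are Ngfr, the low-affinity neurotrophin receptor (slope 1.30), and Mmp9, a protease that can cleave the BDNF precursor (slope 1.27). Another is Itpr1, a calcium release channel that binds Homer (slope -0.99). In the dense-core list, Chga, a granin like Scg2, had a slope of 0.52 (adjusted p = 0.286 in edgeR) and Pcsk2, the sister convertase of Pcsk1, a slope of -0.61 (adjusted p = 0.344).

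Markers of cell types and regions differed with dose beside the 10 genes. The 16 excitatory neuron markers had a median slope of -1.04 with 14 negative (-0.63 without G4), and none passed. Slc17a7, the vesicular glutamate transporter of cortical neurons, had a slope of -1.02 (adjusted p = 0.297 in edgeR). Of 8 tested midbrain dopamine markers, 3 rose (Slc6a3 with a slope of 6.30, Ddc with 2.57 and Chrna6 with 2.93), and their summed level ran from 164 to 512 CPM at 500 mg/kg, against 41.7 to 191 CPM in vehicle mice. Slc6a3, En1, Foxa1 and Pitx3 of that list were at 0 in at least 1 mouse. Of 12 tested hypothalamic markers, 1 rose (Irs4 with a slope of 3.22), and the list had a summed level of 226 to 468 CPM at 500 mg/kg, against 111 to 226 CPM in vehicle mice. Without G4 the adjusted p in edgeR was 0.00669 for Slc6a3, 0.348 for Ddc, 0.220 for Chrna6 and 0.265 for Irs4. Oligodendrocyte markers, none of them called by edgeR, had a median slope of 0.75 (0.34 without G4). DESeq2 called 3 of these 10 markers rising, beside 5 midbrain dopamine and 2 hypothalamic markers, against 1.37% of all genes it adjusted. No excitatory marker was called by DESeq2. Before adjustment in edgeR, 9 of the 10 oligodendrocyte markers rose with p under 0.05, as did 7.91% of all genes. With the tag number of the labels as a block, a fit that hardly separates dose from sex, edgeR called no gene at all. It therefore cannot decide on the calls of Slc6a3, Ddc, Chrna6 and Irs4. The part of the other regions and cell types in the slopes of the 10 genes was not tested, and the excitatory markers were entered as a covariate by their mean log2 level.

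With that covariate, Npas4 had a slope of -1.03 (SE 0.30, adjusted p = 0.225 in edgeR), Plk2 -0.36 (SE 0.14, adjusted p = 0.360) and Scg2 0.57 (SE 0.19, adjusted p = 0.277). Arc came to 0.21, Homer1 to 0.17, Nptx2 to 0.35, Ptgs2 to 0.11 and Inhba to 0.14, so that these 5 turned positive. The median of the 10 genes was 0.12 with 4 negative, against -0.49 with 9 negative without the covariate. Among the other activity-induced genes, Btg2 had a slope of -1.74 (adjusted p = 0.0279) and Fos -1.14 (adjusted p = 0.149) with the covariate, and the adjusted p in edgeR was 0.111 for Ier2 and 0.111 for Dusp1.

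**Figure D3:**
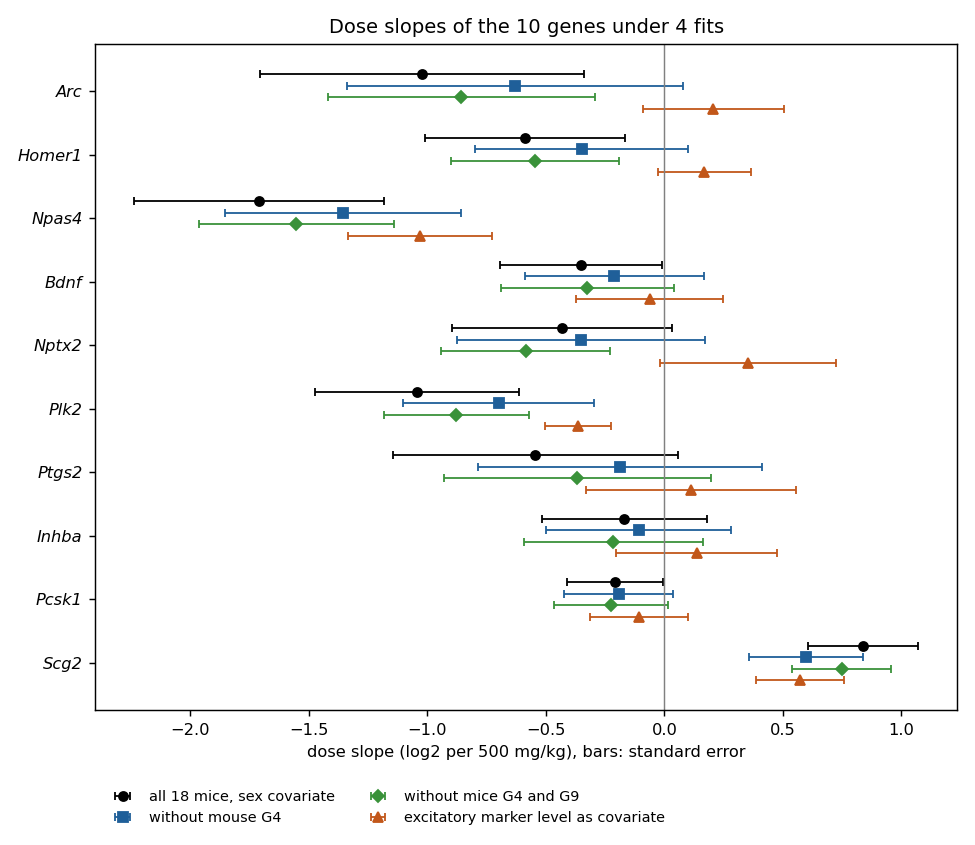
Dose slope of each gene (log2 per 500 mg/kg) with its standard error, from all 18 mice, without G4, without G4 and G9, and with the excitatory marker level as covariate. Npas4 stayed at -1.03 or lower and Scg2 at 0.57 or higher in all 4 fits, while Arc ranged from -1.02 to 0.21.

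The same mice were low or high for most of the genes. G9 and G4 were among the 6 lowest of the 18 mice for all 9 genes other than Scg2, and G45 (125 mg/kg) and G49 (250 mg/kg) for 7 of the 9. G40 (125 mg/kg) was among the 6 highest for all 9 genes, and G5 (vehicle) and G66 (250 mg/kg) for 7. Scg2 ran the other way, with G4 the highest of the 18 mice and G9 the next but one. Without both G4 and G9 the median slope was -0.46, with 9 of 10 negative and none of the 10 genes called.

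**Figure D4:**
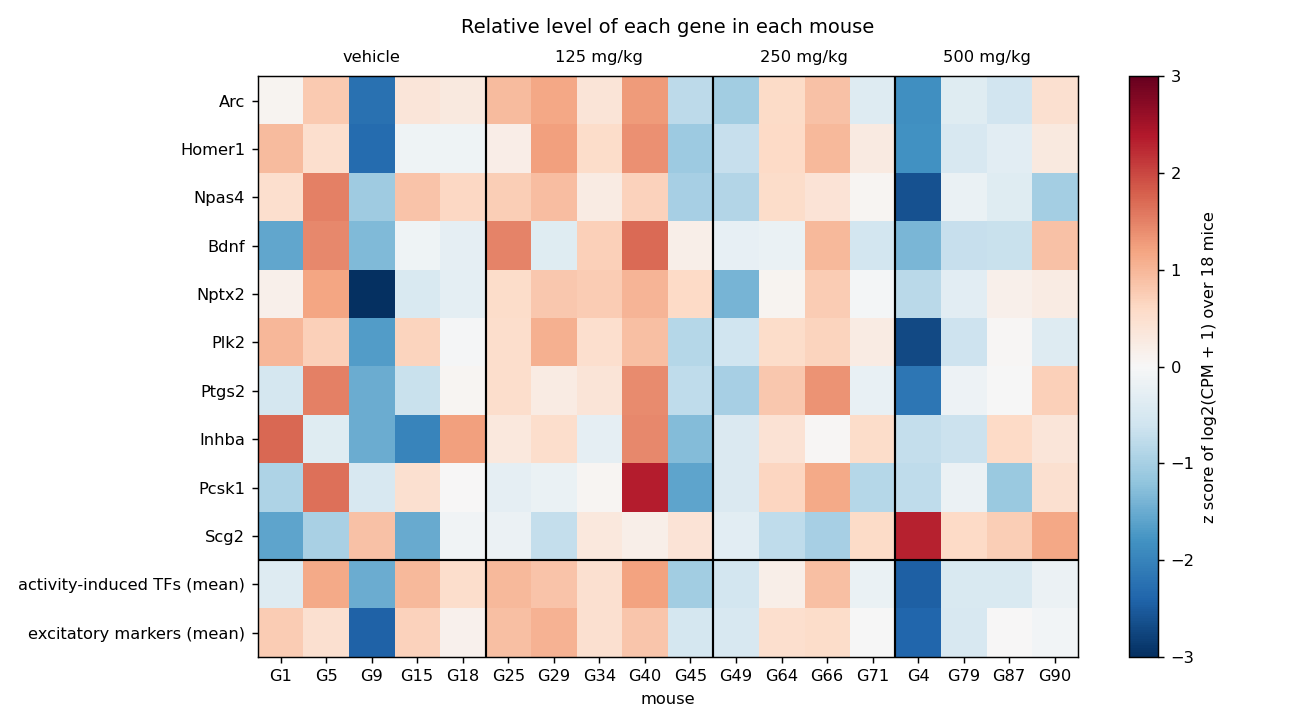
Level of each gene in each mouse as a z score of log2(CPM + 1) over the 18 mice, grouped by dose. The bottom rows give the mean of the list of 20 activity-induced transcription factors and other early genes, and of 16 excitatory markers. G9 and G4 are blue in the upper rows and in the excitatory marker row, and red for Scg2.

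Over the 18 mice, log2(CPM + 1) of all 36 pairs that leave out Scg2 correlated positively, with a median Pearson r of 0.66 and a range of 0.12 to 0.92. All 9 pairs with Scg2 were negative, with a median of -0.42. Of the 45 pairs, 29 had an adjusted p under 0.05 for Pearson's r and 28 for Spearman's rho in permutation tests with 100000 resamples. With the group means taken out, the median r was 0.70 for the 36 pairs and -0.61 for the 9 pairs, and without the 2 mice farthest from the median it was 0.59 and -0.37. These values describe libraries that share their tissue makeup and were not adjusted for it. No permutation test was run on pairs of other genes, so the counts of 29 and 28 have no background share beside them.

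Arc and Homer1 were the closest pair, with r = 0.92 and rho = 0.86 (permutation p = 1e-05, the smallest these permutations can give, and 2e-05, adjusted p = 0.000112 and 0.000225), and r was 0.82 without G9 and G4. Npas4 and Scg2 were the most opposed pair, with r = -0.80 and rho = -0.75 (permutation p = 5e-05 and 0.00059, adjusted p = 0.000321 and 0.00241), and r was -0.65 without G4 and G9. Bdnf and Inhba were the least related pair, with r = 0.12 and rho = 0.02 (permutation p = 0.626 and 0.954, adjusted p = 0.626 and 0.954), and r was -0.09 without G40 and G25.

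**Figure D5:**
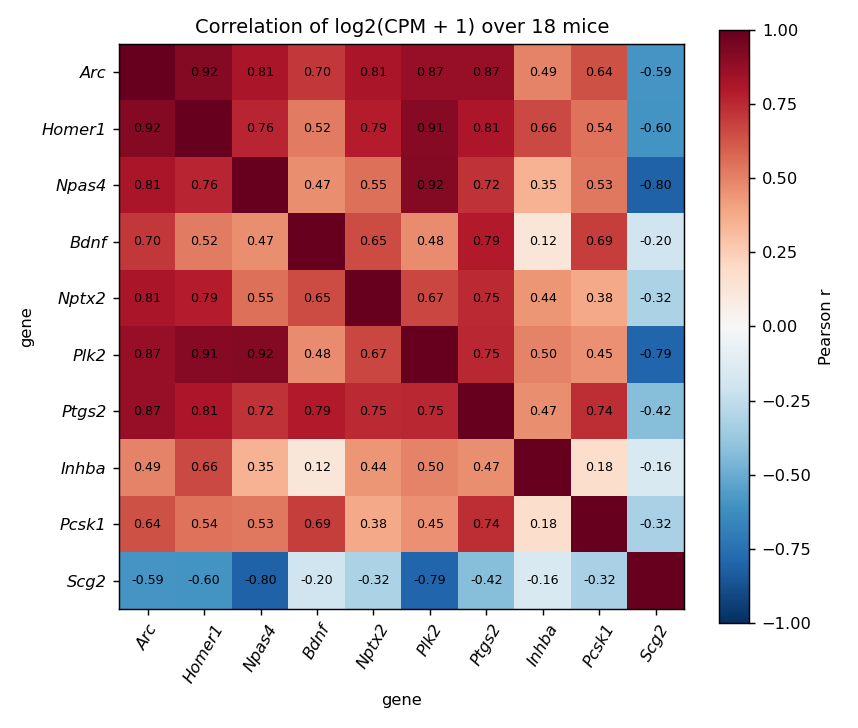
Pearson r of log2(CPM + 1) over 18 mice for each pair of the 10 genes, printed in each cell. Arc, Homer1, Npas4 and Plk2 are joined by r of 0.76 to 0.92, and the row of Scg2 is negative throughout.

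The level of the excitatory markers tracked some of these genes more than others. Pearson's r over the 18 mice was 0.96 for Plk2, 0.92 for Arc, 0.92 for Homer1 and 0.86 for Npas4, against 0.55 for Bdnf, 0.50 for Inhba and 0.41 for Pcsk1, and -0.73 for Scg2. Without G9 and G4 it was 0.95 for Plk2, 0.85 for Arc and 0.81 for Npas4, against 0.27 for Bdnf, and -0.59 for Scg2. These are descriptions over libraries of 1 tissue, with no test.

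Among the 3 genes outside the 10 with the most similar pattern over the 18 mice were, for Arc, Smim43 (Pearson r = 0.96) and the transcription factor genes Egr1 (0.96) and Egr3 (0.95), and for Npas4 the transcription factor genes Nr4a1 (0.95) and Junb (0.94). Dclk1 (0.97), a doublecortin-like kinase, was among the 3 genes most like Homer1, and Bdnf was most like Bhlhe40 (0.86), a transcriptional repressor, and Nrn1 (0.84), the activity-induced neuritin. Plk2 was most like Ccsap (0.98) and Slc8a2 (0.98), a sodium and calcium exchanger. Ptgs2 was most like Vip (0.91) and Npy1r (0.87), a neuropeptide gene of interneurons and a neuropeptide Y receptor. Scg2 was most like Grb10 (0.92), an adaptor protein of growth factor receptors, and Pcsk1 was most like Serpini1 (0.85), which encodes neuroserpin.

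Per kilobase of exon, the mean level over the 18 mice was highest for Scg2 (134 ± 49.7 CPM per kb, SD, n = 18) and Arc (106 ± 66.4), which did not differ beyond their spread. Plk2 followed with 35.3 ± 15.4, then Nptx2 with 18 ± 8.63 and Homer1 with 16.4 ± 7.49, which lay within each other's SD. Npas4 (5.85 ± 3.55), Bdnf (5.52 ± 2.24), Ptgs2 (5.3 ± 3.92) and Pcsk1 (3.56 ± 0.85) overlapped in the same way, and Inhba was last with 0.829 ± 0.317. The lengths are unions of all annotated exons. Relative to its mean, Ptgs2 varied between mice more than 96.3% of all tested genes did, Arc more than 93.3% and Npas4 more than 92.5%, and Scg2 (74.9%) and Pcsk1 (51.8%) were the steadiest of the 10 genes by this rank.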

How the data were processed

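RNA of 18 mice was sequenced by the authors from ribosome-depleted stranded libraries as 100 bp paired-end reads from 250 ng of RNA. Per the submitters' processing notes, STAR 2.7.5b, featureCounts, MultiQC 1.12 and DESeq2 1.34.0 were used with GRCm38, and the authors deposited raw counts per gene. How strand and multiply mapped reads were handled is not given in the sources used here.

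The counts were tested with edgeR 4.0.16 (quasi-likelihood test, TMM scaling, sex as covariate, R 4.3.3) on the 15863 of 27179 genes that passed a filter at a minimum count of 10, and p-values were adjusted over all of them at 0.05. Dose entered as a line (log2 per 500 mg/kg) or as 4 groups. CPM values are TMM-normalized, and correlations used log2(CPM + 1) with 100000 permutations. DESeq2 1.42.0 and limma 3.58.1 (voom) were among 15 alternatives of the dose fit, beside each of 18 mice left out. The scripts were tested on simulated data. Total counts ran from 3948096 to 11732885, and libraries of 1 group differed beyond sampling noise (chi-square per degree of freedom of 9.67 or more in 32 pairs). P-values of the fits weigh differences against the spread between these mice. The study housed mice in groups by sex and dose, so differences between cages cannot be told apart from dose. The 10 genes and all lists were chosen with earlier results of these data known. Named genes were the 10, list genes past the test in edgeR or DESeq2 or with small p, and the 3 genes most like each of the 10, of which some are given.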

Additional observations from a re-analysis of the deposited data

Results flagged for a closer look

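Ptgs2 in the vehicle male G5 stood far from the rest of its group, with 61.9 CPM against 5.21 to 19.4 CPM in the other 4 vehicle mice. The gap to the nearest mouse was 0.749 of the group's whole range. Of 40 combinations of gene and dose group checked in this way 1 stood out, and chance alone gives about 1 in 20 for normally spread values. The check used CPM and was not run on log2(CPM + 1), where G5 had 5.97 against 2.63 to 4.35 in the other vehicle mice.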

How the results depend on the processing

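No paired analysis was possible because the dose groups share no replicate numbers. The tag numbers of the labels, whose meaning is not given, cross the dose groups only in part (43 in vehicle and 125 mg/kg, 46 in vehicle and 500 mg/kg). In both of these tags the vehicle mice are females and the treated mice males. Only tag 45 holds both sexes at a single dose, with G49 its only female. As a block the tags left no gene called, in a fit that hardly separates dose from sex. The slopes of Npas4, Plk2, Pcsk1 and Scg2 kept their direction in all 15 alternatives and with each of the 18 mice left out. DESeq2 raised the number of the 10 genes called from 0 to 1 for the rising slope, for 500 mg/kg and for any difference. Leaving out mice gave 0 to 1 rising genes (1 without G9). The median slope was -0.32 with limma-voom, 0.12 with the excitatory covariate, -0.071 with a block for the tag number, 0.025 without 500 mg/kg mice and -1.06 without vehicle mice, and -0.70 to -0.28 with a mouse left out. Slopes turned positive with the excitatory covariate for Arc (0.21), Homer1 (0.17), Nptx2 (0.35), Ptgs2 (0.11) and Inhba (0.14), with the tag block for Bdnf (0.15), Nptx2 (0.014), Ptgs2 (0.22) and Inhba (1.44), and without 500 mg/kg mice for Arc (0.16), Homer1 (0.31), Bdnf (0.17) and Ptgs2 (0.21), and the other activity-induced effectors had a median of 0.011. Inhba was 0.083 with limma-voom and -0.31 to 0.031 with a mouse left out. At 250 mg/kg without the sex term the changes were 0.062 for Arc, 0.12 for Bdnf, 0.038 for Nptx2 and 0.029 for Inhba with a median of 0.050, and with those groups alone -0.11 for Homer1 and -0.24 for Ptgs2 with a median of -0.22, while DESeq2 gave Ptgs2 -0.012. With a mouse left out, changes at 125 mg/kg ran from -0.13 to 0.34 for Inhba, -0.50 to 0.066 for Npas4, -0.22 to 0.10 for Pcsk1 and -0.10 to 0.40 for Plk2 (median 0.21 to 0.50). At 250 mg/kg they ran from -0.51 to 0.17 for Arc, -0.22 to 0.36 for Bdnf, -0.12 to 0.25 for Homer1, -0.25 to 0.24 for Inhba, -0.48 to 0.19 for Nptx2, -0.20 to 0.080 for Pcsk1, -0.38 to 0.72 for Ptgs2 and -0.026 to 0.34 for Scg2 (median -0.24 to 0.082). At 500 mg/kg they ran from -0.40 to 0.17 for Bdnf, -0.31 to 0.16 for Inhba, -0.37 to 0.25 for Nptx2 and -0.74 to 0.20 for Ptgs2 (median -0.48 to -0.14). Over all genes edgeR called 39 rising and 7 falling slopes, against 188 and 54 with DESeq2, 8 and 3 with the excitatory covariate, 2 and 0 without G4 and 0 and 0 with the tag block. The cause of these shifts was not tested.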

Other observations

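Of the remaining marker lists, edgeR called no gene. The median slope was -0.58 for GABAergic neuron markers (12 genes tested), -1.36 for striatal neuron markers (10 genes, all negative), -0.22 for thalamic neuron markers (7 genes) and -0.69 for cerebellar neuron markers (10 genes, all negative). It was 0.53 for hindbrain Hox genes (11 genes, each at 0 in at least 1 mouse), 0.11 for astrocyte markers (10 genes), -0.0010 for microglia markers (10 genes), 0.061 for endothelial markers (10 genes) and -0.83 for choroid plexus markers (7 genes, all negative). Without G4 the median was -0.32 for GABAergic, 0.090 for thalamic, -0.38 for cerebellar, 0.28 for Hox, -0.065 for microglia, 0.20 for endothelial and -0.32 for choroid plexus genes. The single pituitary marker tested had a slope of 0.25 and the single red blood cell marker 0.76. DESeq2 called 1 gene of these lists, the astrocyte transcription factor gene Sox9, with a slope of -0.60 and an adjusted p of 0.0866 in edgeR. Thalamic markers summed to between 105 and 1917 CPM in the mice given 125 mg/kg, and to between 82.7 and 302 CPM in vehicle mice.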
